A study of Mus musculus with 13 samples.

Results

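Dark-adapted retinae of PGC-1α KO mice (KO dark) were compared with dark-adapted retinae of WT mice (WT dark) on 6 of the 13 Affymetrix Mouse Gene 1.0 ST arrays of the series, namely replicates 1 to 3 of either group. One more array, labelled WT dark replicate 4, was of a male mouse and was left out, and the other 6 arrays were of light-exposed males, 3 per genotype. Each array held RNA of the 2 pooled retinae of 1 mouse. By the labels the KO and WT mice of the 6 arrays were female and were kept in the dark, whereas the methods name male mice of 6 to 13 weeks, adapted to darkness for 16 h. The KO is global and lifelong, so that no retinal cell type and no age was singled out. For the WT mice the methods name C57BL/6 NRj animals of a breeder, whereas the figure legends name C57BL/6j, and the KO mice were of a C57BL/6 line given by another laboratory. Genotype and origin of the mice therefore cannot be told apart in this comparison.

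PGC-1α binds no DNA itself and acts through DNA-binding partners. The estrogen-related receptors (ERR) are the partners best known for its control of respiration genes. Retinal neurons burn large amounts of ATP in darkness, when rods and cones hold their cation channels open and release transmitter without pause. The whole retina contributes RNA to each array, with rods as the most numerous cells, so that fewer cells of a type and less RNA per cell cannot be told apart.

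The label of the tissue was met by its markers, since the mean log2 intensity of 26 rod markers was 11.91 to 11.99 in the 6 arrays. Xist, transcribed from the inactive X chromosome, had log2 intensities of 11.86 to 12.02, and Uty of the Y chromosome had 4.14 to 4.42, as in female mice. Ppargc1a, the targeted gene, had log2 intensities of 10.40, 10.19 and 10.26 in KO dark and 10.03, 10.01 and 10.02 in WT dark. Its level was thus not lower in any KO array, with a difference of 0.26 (SE 0.06, adjusted p = 0.109). The sources used here do not say which part of the transcript the probes cover, and the level is therefore no check of the deletion or of the genotype labels. The other coactivator of the family, Ppargc1b, differed by 0.01 (adjusted p = 0.953), and of the 23 genes of PGC-1 coactivators and their partner factors measured, none was called. Over all genes, arrays of 1 group correlated with r of 0.998, and KO dark with WT dark arrays with 0.997. The array labelled WT dark replicate 4 stood apart from WT dark (r = 0.990) and lay nearer to KO light replicates 1 and 2 (0.997 to 0.998), and the array labelled KO light replicate 3 lay nearer to WT dark (0.997 to 0.998) than to KO light replicates 1 and 2 (0.991 to 0.993).

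Of 19189 genes not placed on the X or Y chromosome, 145 (0.756%) passed the test between KO dark and WT dark and are called here, which required a Benjamini-Hochberg adjusted p under 0.05 in limma and a KO to WT ratio no lower than 1.2 or no higher than 0.87. In KO dark 52 genes (0.271%) were higher and 93 (0.485%) lower, and the median difference of all genes was 0.003 on the log2 scale. The 3 KO dark and 3 WT dark arrays did not overlap for any of the 145 called genes, which also holds for 3251 (16.9%) of all genes. With 3 arrays a group an exact permutation test cannot give a p under 0.10, so the calls rest on the variance that limma shares among genes. Leaving out 1 array in turn gave 70 to 87 calls (70 without KO dark replicate 1, 84 and 86 without KO dark replicates 2 and 3, 87, 72 and 78 without WT dark replicates 1, 2 and 3), and 58 of the 145 genes kept their call each time. With the array labelled WT dark replicate 4 added to WT dark, Asns alone was called.

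The called genes were spread unevenly over the chromosomes. Chromosome 9 held 37 of them, 3.18% of its 1165 genes tested, chromosome 14 held 17 (2.43%), chromosome 5 held 20 (1.75%), chromosome 12 held 11 (1.69%) and chromosome 13 held 9 (1.23%). On every other autosome the share was at most 0.668%, and chromosome 16 had no called gene among 648. When each chromosome was cut into stretches of 50 neighbouring genes, 304 of 390 stretches had no called gene and the highest number was 7, on chromosome 9.

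**Figure D1:**
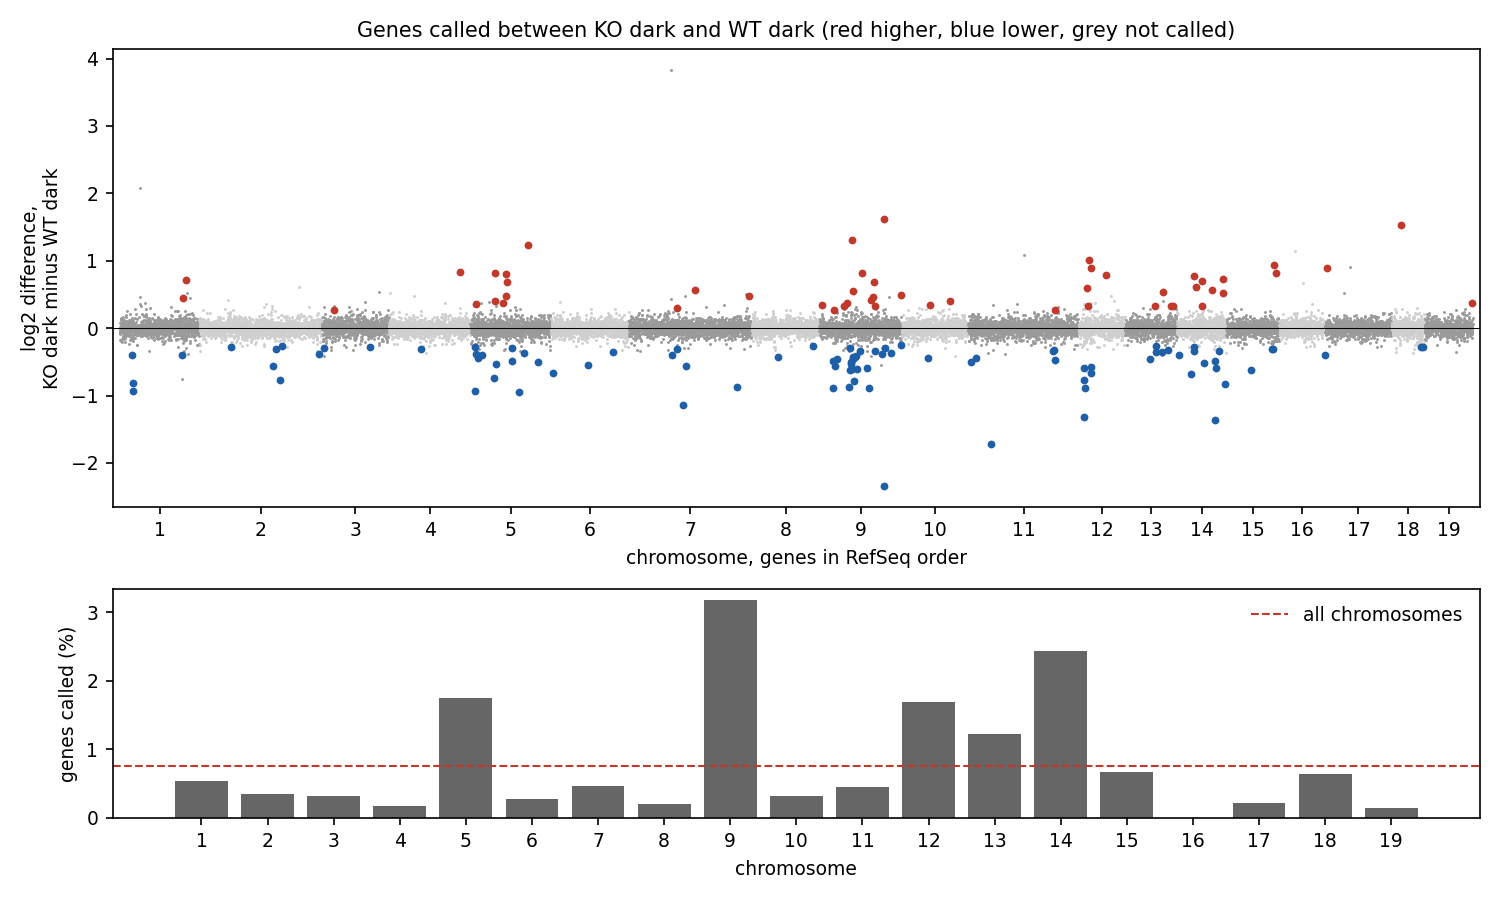
Log2 difference between KO dark and WT dark of each gene tested (upper panel, vertical axis) in RefSeq order along the autosomes (horizontal axis), with called genes in red (higher in KO dark) or blue (lower), and the percentage of genes called on each chromosome (lower panel, the dashed line marks 0.756% for all genes tested). Called genes of both directions lie close together on chromosome 9, which has 3.18% of its genes called.

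That stretch of chromosome 9 held genes of unlike function that moved in both directions. Htr3a, a subunit of the serotonin-gated channel (-0.52 on the log2 scale), Pts, an enzyme of tetrahydrobiopterin synthesis (-0.61), Sdhd, a membrane anchor of respiratory complex II (-0.46), Pih1d2 (-0.43) and Sik2, a salt-inducible kinase (-0.78), fell in KO dark. Il18, an inflammatory cytokine (1.31), and Ppp2r1b, a scaffold of protein phosphatase 2A (0.55), rose. In the stretch before it Fxyd6 (-0.88), Cep164 (-0.62), Nxpe4 (-0.50) and Pafah1b2 (-0.30) fell, the last with a call lost on leaving out each array in turn. Elsewhere on chromosome 9 the neighbours Abhd14a and Abhd14b moved in opposite directions, by -2.34 and 1.62. None of the 40 genes tested next to Ppargc1a on chromosome 5, 20 on either side, was called, and their median difference was 0.000.

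The largest fall was that of Abhd14a, which encodes a hydrolase-fold protein. Its log2 intensities were 8.07, 7.89 and 8.24 in KO dark and 10.46, 10.34 and 10.43 in WT dark. The groups were more than 2 units apart, with a difference of -2.34 (SE 0.09, adjusted p = 4.1e-05). Slc25a37, or mitoferrin 1, the carrier that brings iron into mitochondria, had 7.88, 7.69 and 7.80 in KO dark and 9.0, 9.39 and 9.05 in WT dark (difference -1.36, SE 0.10, adjusted p = 0.00078). Odc1, which makes putrescine from ornithine, had 7.98, 8.03 and 7.86 in KO dark against 8.84, 8.59 and 8.75 (difference -0.77, SE 0.07, adjusted p = 0.0029). It was the only called gene of the 8 polyamine genes listed, beside 0.485% of all genes called lower. Hdc, the enzyme that forms histamine, had 8.23, 8.10 and 8.24 in KO dark and 8.96, 8.81 and 9.11 in WT dark (difference -0.77, SE 0.08). The kinase Sik2 had 9.85, 9.62 and 9.55 against 10.49, 10.47 and 10.39 (difference -0.78, SE 0.08).

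Uggt2, a glucosyltransferase that checks glycoprotein folding, fell by 0.83, and Fxyd6, a modulator of the sodium pump, fell by 0.88. Mns1, a protein of sperm flagella and motile cilia, fell by 0.88. Dnah7b and Dnah7c, neighbouring copies of an axonemal dynein gene whose probes may cross-react, fell by 0.81 and 0.93. Oasl2, an interferon-induced gene, fell by 0.95, and this call remained only without KO dark replicate 2 (adjusted p up to 0.171). Dnah7b and Fxyd6 kept their calls on leaving out 1 and 3 of the 6 arrays in turn. The remaining genes of the 15 largest falls were the pseudogene Olfr1372-ps1 (-1.72), AI506816 (-0.94), the galactosidase-like Glb1l3 (-0.88) and Cdcp3 (-0.88).

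Among the rises Abhd14b, the neighbour of Abhd14a, had log2 intensities of 10.14, 9.76 and 10.14 in KO dark and 8.43, 8.42 and 8.33 in WT dark (difference 1.62, SE 0.10, adjusted p = 0.00042). Cdk2ap1, an inhibitor of the cell cycle kinase Cdk2, had 11.68, 11.60 and 11.67 in KO dark and 10.43, 10.46 and 10.35 in WT dark (difference 1.24, SE 0.05, adjusted p = 4.1e-05). Both of its probe sets rose, by 1.36 and 1.12. Il18 had 8.66, 8.74 and 8.65 in KO dark against 7.51, 7.40 and 7.23 (difference 1.31, SE 0.07, adjusted p = 0.00025). Agr2, a disulfide isomerase of the endoplasmic reticulum, rose by 1.01, the kinase anchor Akap6 by 0.89, the matrix protein gene Fndc1 by 0.90 and Krt18, a keratin of simple epithelia, by 0.82. Cxcl13, the chemokine that attracts B cells, rose by 0.80, Zfp991 by 0.84, Armh4 by 0.78 and Uaca, a regulator of apoptosis, by 0.82. Uaca was the only called gene of the 30 apoptosis genes listed, beside 0.271% of all genes called higher. The call of Fndc1 was lost without KO dark replicate 1 (adjusted p = 0.0559).

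**Figure D2:**
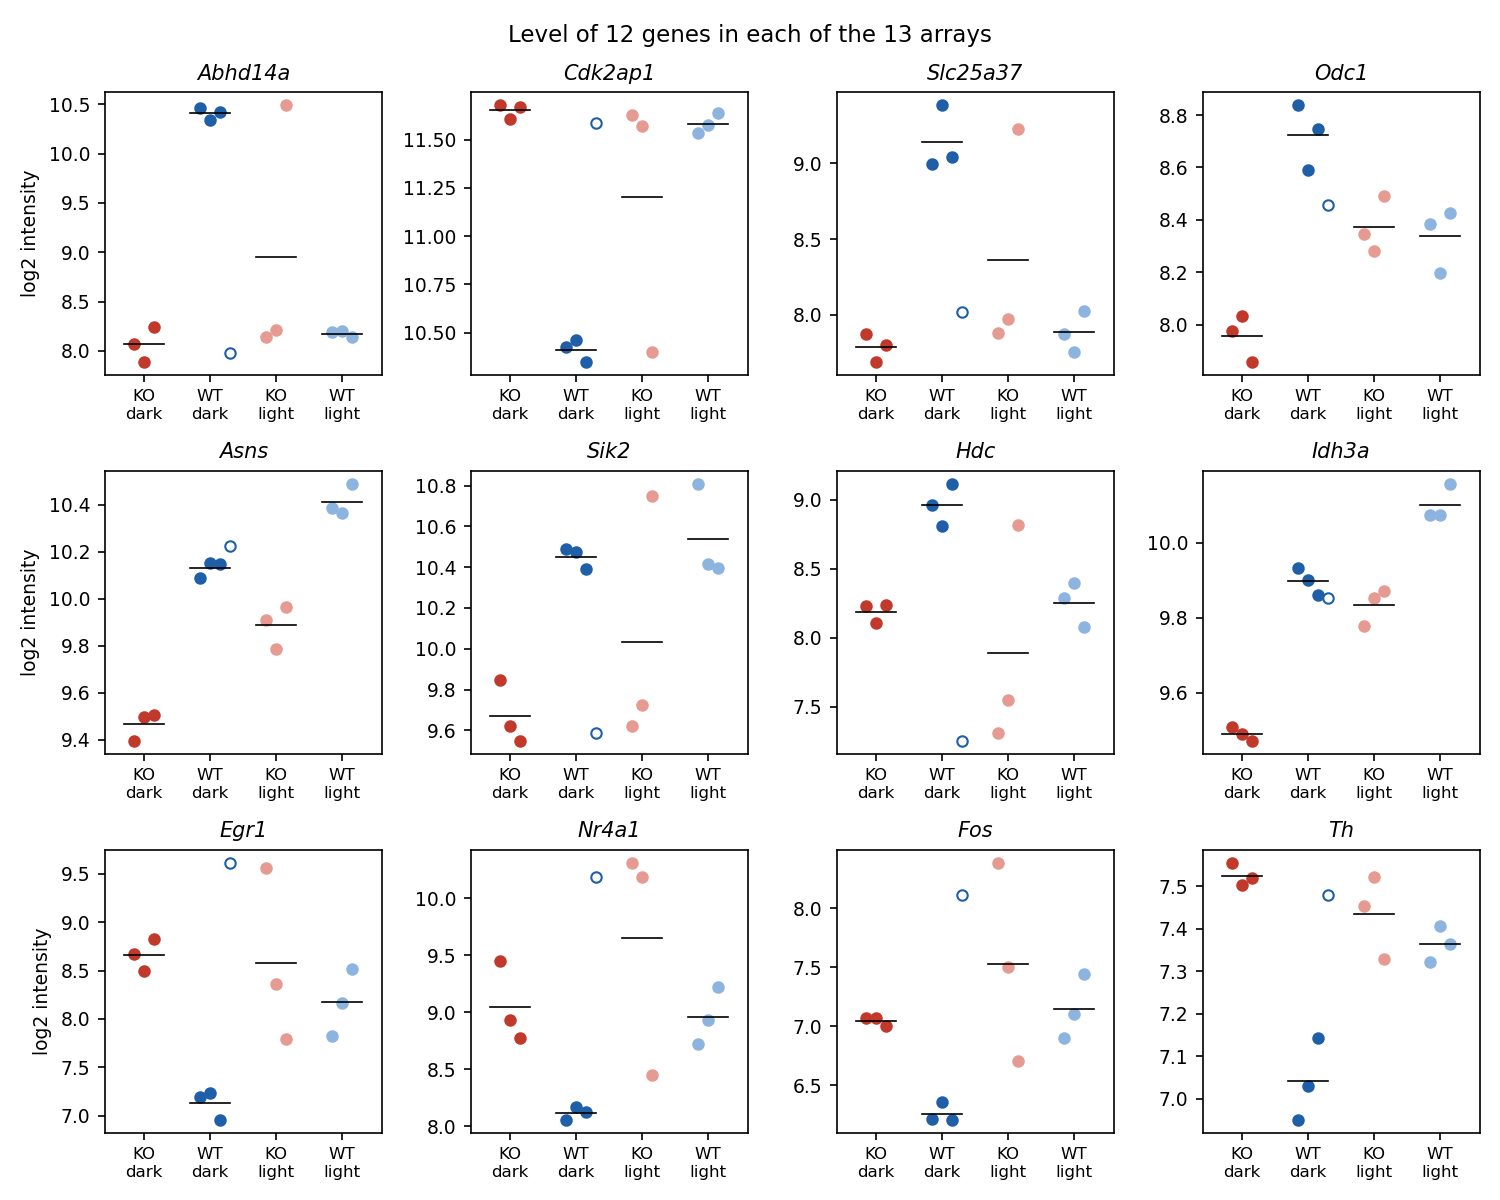
Log2 intensity (vertical axes) of 12 genes in each of the 13 arrays by labelled group (horizontal axes), where points are arrays, the open point is the array labelled WT dark replicate 4 and black lines are means of replicates 1 to 3. KO dark and WT dark replicates 1 to 3 do not overlap in any panel, and for Abhd14a, Cdk2ap1 and Slc25a37 the WT light arrays lie at the level of KO dark and KO light replicate 3 at that of WT dark.

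Genes of the amino acid response, the program by which the factor ATF4 raises amino acid synthesis and uptake, fell in KO dark in 4 of 25 cases (Asns, Chac1, Mthfd2 and Slc7a5) and rose in none. Over all genes 0.485% were called lower and 0.271% higher. Of the 25 members 18 had a lower mean in KO dark, with a median difference of -0.09, beside 9262 of 19189 and 0.003 over all genes. Asns, or asparagine synthetase, carries the element of this response at its start. The 300 bases around its start (250 before, 50 after) are shown in the direction of the gene, from chr6:7693160-7693459, minus strand, GRCm38.p6, as RefSeq gives them, with the letters of the element in capitals:

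Asns: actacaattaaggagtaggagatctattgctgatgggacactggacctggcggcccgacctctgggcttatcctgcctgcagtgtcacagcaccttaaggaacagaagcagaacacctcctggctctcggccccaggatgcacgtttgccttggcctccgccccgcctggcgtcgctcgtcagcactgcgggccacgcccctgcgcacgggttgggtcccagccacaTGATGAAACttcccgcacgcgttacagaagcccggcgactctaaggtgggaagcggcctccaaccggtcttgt

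The letters TGATGAAAC, searched on both strands, begin at position -23 from the gene start. They are in the promoter of 62 of 27025 genes (0.229%), of 33 of the 15009 genes tested that have a promoter sequence (0.22%) and, of the 119 called genes with a promoter sequence, in that of Asns alone. Those letters are not in the same windows of Chac1 and Mthfd2. A match is a description of the sequence and does not show that a factor binds there.

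Asns had log2 intensities of 9.39, 9.50 and 9.50 in KO dark and 10.09, 10.15 and 10.15 in WT dark, so that all KO arrays lay well below all WT arrays (difference -0.66, SE 0.05, adjusted p = 0.00073). With the array labelled WT dark replicate 4 added the difference was -0.69 (adjusted p = 0.0176). Chac1, which degrades glutathione, had 7.60, 7.78 and 7.50 in KO dark and 8.14, 8.28 and 8.15 in WT dark (difference -0.57, SE 0.08, adjusted p = 0.0149). Mthfd2, a mitochondrial enzyme of folate metabolism, fell by 0.55 (SE 0.07) and Slc7a5, a transporter of large neutral amino acids, by 0.26 (SE 0.04). The calls of Chac1, Mthfd2 and Slc7a5 remained on leaving out 1, 2 and 0 of the 6 arrays in turn. Atf4 itself differed by -0.11 (adjusted p = 0.403), and Trib3 and Ddit3, other members of the program, by 0.06 each. Outside the list the serine and alanine transporter Slc1a4 (-0.45) and Bcat2, which transaminates branched-chain amino acids in mitochondria (-0.30), fell as well, and both calls remained on leaving out only 1 of the 6 arrays, WT dark replicate 1. Of 18 cytoplasmic aminoacyl-tRNA synthetases 15 had a lower mean in KO dark (median difference -0.11) and none was called.

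Respiration genes had mostly lower means in KO dark, by small amounts. Over all genes 9262 of 19189 had a lower mean, the median difference was 0.003, and 0.485% were called lower. Of 33 subunits of complex I 29 were lower (median difference -0.09, none called), of 23 genes of complexes II to IV and cytochrome c 17 were lower (median -0.10), of 16 of complex V 14 (median -0.07) and of 21 of the citrate cycle 18 (median -0.10). Sdhd, Idh3a and Atp5k were the called members, each lower. All lie on chromosomes with many calls, Sdhd and Idh3a on chromosome 9 (3.18% of genes called) and Atp5k on chromosome 5 (1.75%). Sdhd is in the stretch of chromosome 9 with 7 called genes, and Idh3a is in the next stretch. Idh3a, the catalytic subunit of NAD-dependent isocitrate dehydrogenase, had log2 intensities of 9.51, 9.49 and 9.47 in KO dark and 9.93, 9.90 and 9.86 in WT dark (difference -0.41, SE 0.04, adjusted p = 0.0037). Sdhd had 8.06, 8.26 and 8.10 in KO dark and 8.67, 8.54 and 8.57 in WT dark (difference -0.46, SE 0.06, adjusted p = 0.018), and its call remained only without KO dark replicate 2. Atp5k, a small subunit of the ATP synthase, had 8.15, 8.12 and 8.13 against 8.51, 8.41 and 8.37 (difference -0.29, SE 0.05, adjusted p = 0.0385), a call lost on leaving out each array in turn. Cox5b of complex IV had 10.98, 10.97 and 11.03 in KO dark and 11.24, 11.25 and 11.21 in WT dark, without overlap, but was not called (difference -0.24, adjusted p = 0.0523), and cytochrome c (Cycs) differed by -0.19 (adjusted p = 0.398). Mfn2, which fuses outer mitochondrial membranes, differed by -0.17 (adjusted p = 0.164).

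The mean level of these 4 lists was lower in each KO dark array than in each of the other 10 arrays. For the citrate cycle it was 9.32, 9.33 and 9.29 in KO dark, 9.47, 9.41 and 9.42 in WT dark, 9.44, 9.49 and 9.40 in KO light and 9.56, 9.55 and 9.56 in WT light. For complex I it was 9.33, 9.33 and 9.32 in KO dark, 9.44, 9.41 and 9.39 in WT dark, 9.42, 9.47 and 9.36 in KO light and 9.54, 9.49 and 9.52 in WT light. In all 4 lists the 3 KO light arrays lay below the 3 WT light arrays as well. So did WT dark replicates 1 to 3, which the array labelled KO light replicate 3 resembled. Among other genes of mitochondria, Chchd10, a protein of the intermembrane space (-0.44), Coa3, an assembly factor of complex IV (-0.32), and Acad11, an acyl-CoA dehydrogenase (-0.39), fell, and Cox18, another assembly factor (0.37), rose. The call of Chchd10 was lost without WT dark replicate 2, and those of Coa3, Acad11 and Cox18 were lost on leaving out each of the 6 arrays in turn. Me1, the malic enzyme of the cytosol, rose by 0.68, but its 2 probe sets disagreed in size, with 1.17 and 0.19. Of 77 mitochondrial ribosomal proteins 57 had a lower mean (median -0.04) and of 21 genes of fatty acid oxidation 14 (median -0.03), beside 9262 of 19189 over all genes. None of either list was called. The letters TNAAGGTCA, to which ERR binds, are in the promoter of 387 of 27025 genes (1.43%) and of 173 of the 15009 genes tested (1.15%), and among the 119 called genes with a promoter sequence in that of Sdhd alone.

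**Figure D3:**
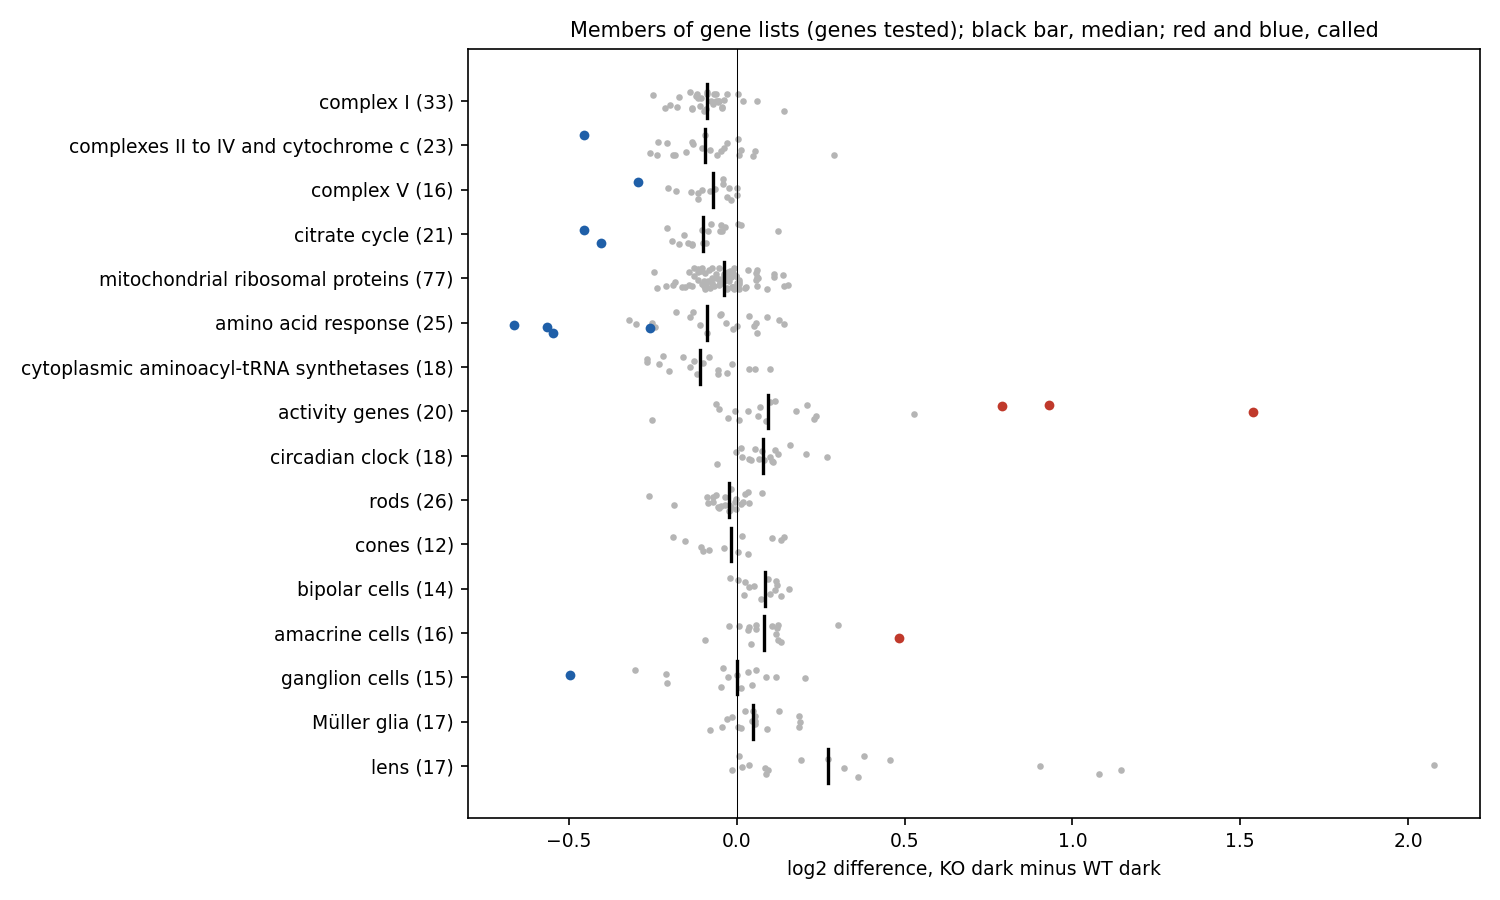
Log2 difference between KO dark and WT dark (horizontal axis) of the members of 16 gene lists (vertical axis, number of genes tested in parentheses), with called members in red (higher in KO dark) or blue (lower) and a black bar at the median of each list. The medians of complex I and of the citrate cycle are -0.09 and -0.10, and those of the activity genes and the lens list are 0.09 and 0.27.

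Of 20 immediate-early genes, which neurons transcribe within minutes of activity, 3 rose in KO dark (Egr1, Nr4a1 and Fos) and none fell, beside 0.271% of all genes called higher. The mean of 15 members was higher in KO dark, beside 9927 of all 19189 genes, and the median difference of the list was 0.09. Egr1, a zinc finger factor, had log2 intensities of 8.67, 8.49 and 8.83 in KO dark and 7.19, 7.23 and 6.96 in WT dark (difference 1.54, SE 0.10, adjusted p = 0.00051). Fos, a subunit of AP-1, had 7.07, 7.07 and 7.0 in KO dark and 6.22, 6.36 and 6.21 in WT dark (difference 0.79, SE 0.05, adjusted p = 0.00066). Both groups were tight and far apart for these genes. The orphan nuclear receptor Nr4a1 had 9.45, 8.93 and 8.77 against 8.06, 8.17 and 8.13 (difference 0.93, SE 0.15, adjusted p = 0.0355), and its call remained only without KO dark replicate 1 or 3. Dusp1, a phosphatase of this class, had a difference of 0.53 (adjusted p = 0.188) and Npas4, which responds to calcium entry, 0.23 (adjusted p = 0.068), while Egr2, Egr3, Egr4, Fosb and Arc lay between -0.05 and 0.03.

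These genes were higher still in the array labelled WT dark replicate 4, where Egr1 was at 9.61, Nr4a1 at 10.18 and Fos at 8.12. With it among WT dark the median of the list was -0.01 and no member was called. In light, Egr1 was at 7.83, 8.17 and 8.52 in WT light, above all 3 WT dark arrays, and at 9.56, 8.36 and 7.80 in KO light. Fos was at 6.90, 7.11 and 7.44 in WT light and at 8.38, 7.50 and 6.71 in KO light. Of the clock genes, 16 of 18 stood higher in KO dark (median 0.08), beside 9927 of 19189 over all genes, and none was called. Per1, which light and activity induce, had 9.65, 9.48 and 9.52 in KO dark against 9.24, 9.24 and 9.37 (difference 0.27, adjusted p = 0.113).

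Th, the enzyme that sets dopamine synthesis in a small class of amacrine cells, had 7.56, 7.50 and 7.52 in KO dark and 6.95, 7.03 and 7.14 in WT dark (difference 0.48, SE 0.06, adjusted p = 0.0069), a call lost without KO dark replicate 1 or WT dark replicate 2 (adjusted p up to 0.0533). Pts, which makes the cofactor that Th needs, had 6.74, 7.06 and 6.88 against 7.57, 7.46 and 7.48 (difference -0.61, SE 0.08, adjusted p = 0.0121). The call of Pts remained on leaving out 2 of the 6 arrays in turn. Th and Pts thus moved in opposite directions, and the other 13 genes of dopamine and tetrahydrobiopterin measured were not called. The 100 bases before the start of Th, from chr7:142899996-142900095, minus strand, GRCm38.p6, as RefSeq gives them, hold the letters of the cyclic AMP response element (TGACGTCA, in capitals), which are in the promoter of 549 of 27025 genes (2.03%), of 414 of the 15009 genes tested (2.76%) and of 4 of the 119 called genes (3.36%):

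Th: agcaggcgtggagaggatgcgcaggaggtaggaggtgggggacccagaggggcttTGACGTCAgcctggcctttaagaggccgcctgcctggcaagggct

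Of the receptors and release machinery, the GABA receptor subunit Gabra2 had 9.16, 9.06 and 9.12 in KO dark and 8.26, 8.41 and 8.23 in WT dark (difference 0.82, SE 0.06, adjusted p = 0.00073). Its near neighbour on chromosome 5, Gabra4, had 8.25, 8.31 and 8.17 against 7.87, 7.80 and 7.85 (difference 0.40). The synaptic adhesion protein gene Slitrk6 rose by 0.73. Cplx1, a regulator of vesicle fusion (-0.49), Vamp1, a vesicle fusion protein (-0.35), and Map1a, a microtubule protein (-0.30), fell. The calls of Cplx1 and Gabra4 remained on leaving out 3 of the 6 arrays in turn, and those of Vamp1 and Map1a on leaving out none. Nefh, the heavy neurofilament subunit found in axons of ganglion cells and in horizontal cells, had 8.85, 8.80 and 8.98 in KO dark and 9.37, 9.38 and 9.37 in WT dark (difference -0.50, SE 0.05, adjusted p = 0.0045). The partner subunits Nefm and Nefl differed by -0.30 (adjusted p = 0.189) and -0.21 (adjusted p = 0.222).

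Markers of the retinal cell types moved little. Over all 19189 genes 9927 had a higher and 9262 a lower mean in KO dark. Of all genes 0.271% were called higher and 0.485% lower. Of 26 rod markers 20 had a lower mean in KO dark (median -0.02), of 12 cone markers 6 (median -0.02), and none was called. Rpgrip1, a protein of the connecting cilium, had means of 11.71 in KO dark and 11.97 in WT dark, whose arrays did not overlap (difference -0.26, adjusted p = 0.058), Aipl1, the chaperone of the rod phosphodiesterase, differed by -0.19 (adjusted p = 0.0922), and the cone phosphodiesterase subunit Pde6h by -0.19 (adjusted p = 0.193). Cngb1 of the rod channel (-0.08), Cabp1, a calcium sensor of synapses (-0.10), and the retinol dehydrogenase Rdh14 (-0.28) were not called either. Of the bipolar and amacrine cell markers 13 of 14 and 14 of 16 stood higher in KO dark, with medians of 0.08 in both lists, and Th alone was called. Of 17 markers of Müller glia 13 were higher (median 0.05), of 18 of astrocytes and vessels 15 were lower (median -0.09), and none was called. Nefh was the called member of the 15 ganglion cell markers. In the signaling lists Fzd3, a Frizzled receptor of planar polarity (0.57), was the called member of 40 Wnt genes and Col6a1, a chain of collagen VI (0.34, a call that remained only without KO dark replicate 3), that of 31 matrix genes, and none of 30 TGF-β genes and 29 actin genes was called.

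Of 17 lens genes 16 stood higher in KO dark on average (median difference 0.27), but none was called. With the ratio limits of the calls but p left unadjusted (under 0.05), 6 lens genes counted as higher, beside 143 of all 19189 genes. The mean level of the list was 7.82, 7.77 and 7.24 in KO dark and 7.34, 7.28 and 6.88 in WT dark. Crygd, a crystallin of lens fibers, had 10.47, 10.88 and 9.72 in KO dark and 9.26, 8.40 and 7.18 in WT dark (difference 2.08, adjusted p = 0.134). The lens list ranged from 6.85 to 8.39 in the light arrays as well, and its part in the other differences was not tested. Klk1b22, a kallikrein with near-identical relatives, had the largest difference of all genes, 3.83, and was not called (adjusted p = 0.0626), with 9.44, 6.95 and 10.24 in KO dark and 5.24, 4.71 and 5.20 in WT dark.

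The light-exposed arrays share no sample with the dark comparison and show how the called genes lay in arrays labelled with the same genotypes. They are of male mice, whereas the 6 arrays of the dark comparison are of females. Of the 145 genes, 81 (55.9%) had the same direction between KO light and WT light as in the dark, against 55.8% of all genes. Without the array labelled KO light replicate 3 it was 104 (71.7%), against 57.6%. In this smaller comparison 159 genes were called (0.829%), and 116 of them had the direction of the dark. Of the 145 genes, 14 were among these 159, all in the direction of the dark. Asns, Sik2, Hdc, Olfr1372-ps1, A230056P14Rik, Cep164, Cplx1, Supt7l, Tmem116, Tmem260 and Pla2r1 fell, and Nr4a1, Agr2 and Limd1 rose. For Hdc, Tmem116, Pla2r1, Nr4a1 and Agr2, however, every WT light array lay nearer to the KO dark mean than to the WT dark mean. For Asns, Sik2, Olfr1372-ps1, A230056P14Rik, Cplx1, Supt7l, Tmem260 and Limd1 every WT light array lay nearer to the WT dark mean. With all 6 light arrays no gene was called. Asns was at 9.91, 9.79 and 9.97 in KO light and at 10.39, 10.36 and 10.49 in WT light, so that each KO light array lay below each WT light array. Idh3a was likewise lower in each KO light array (9.78, 9.85 and 9.87) than in each WT light array (10.07, 10.07 and 10.16), without a call in light (adjusted p = 0.0716 without replicate 3). WT dark replicates 1 to 3 also lay below WT light, at 10.09, 10.15 and 10.15 for Asns and 9.93, 9.90 and 9.86 for Idh3a. The array labelled KO light replicate 3 resembled WT dark, so its place below WT light adds nothing on genotype.

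For each array outside the comparison, the called genes nearer to the KO dark mean than to the WT dark mean were counted. They were 107 and 117 of 145 in KO light replicates 1 and 2, 10 in the array labelled KO light replicate 3, 104 in the array labelled WT dark replicate 4, and 72, 76 and 76 in WT light. Over all genes these shares were 45.7% to 53.4%. The WT light arrays therefore lay on the side of KO dark for about as many called genes as on the side of WT dark.

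**Figure D4:**
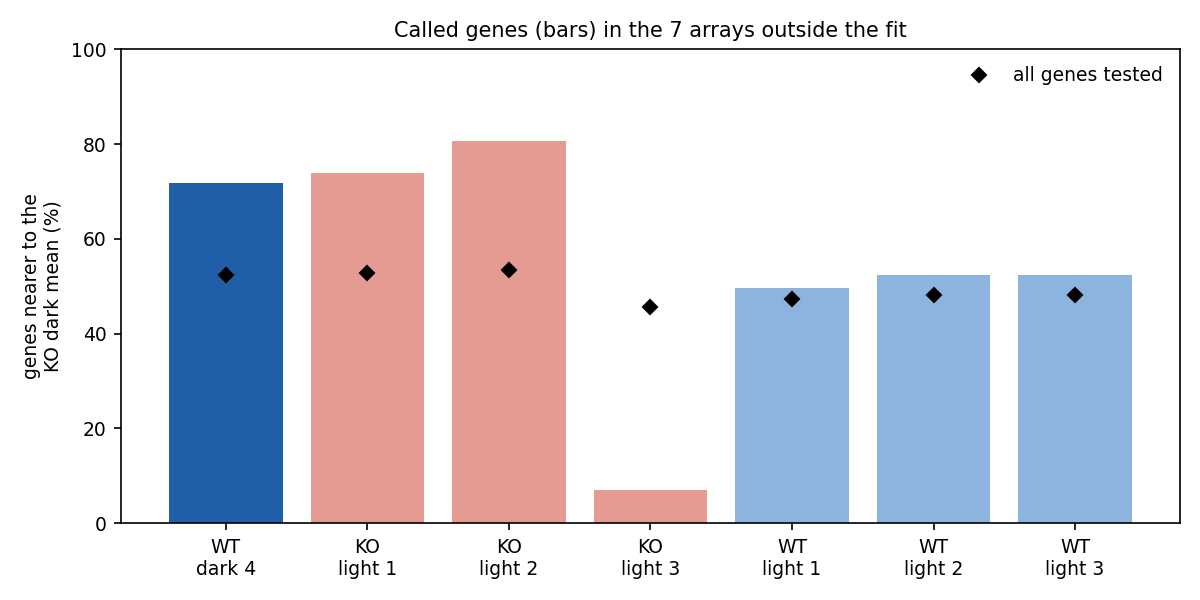
Percentage of the 145 called genes (bars) and of all genes tested (diamonds) whose log2 intensity lay nearer to the KO dark mean than to the WT dark mean (vertical axis) in each of the 7 arrays outside the comparison (horizontal axis). The array labelled WT dark replicate 4 has 71.7% of called genes on the side of KO dark and the array labelled KO light replicate 3 has 6.90%.

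By their level in these arrays, 70 of the 145 called genes followed neither of the patterns described next. For 28 genes (19.3%, against 3.77% of all genes) KO light replicates 1 and 2 lay with KO dark and all 3 WT light arrays with WT dark. The array labelled KO light replicate 3 was not part of this pattern, and it lay with WT dark for 135 of the 145 called genes. The 28 genes included Sik2, Glb1l3, Chac1, Pts, Nefh, Cplx1, Chchd10, Bcat2, Atp5k, Dtd2 and Gabra4. Against the genotype labels, the array labelled WT dark replicate 4 lay with KO dark for 26 of them. For 47 genes (32.4%, against 11.2% of all genes) the array labelled WT dark replicate 4, the WT light arrays and KO light replicates 1 and 2 all lay with KO dark, and the array labelled KO light replicate 3 with WT dark. Among these were 14 of the 30 largest rises and falls, such as Abhd14a, Abhd14b, Cdk2ap1, Slc25a37, Uggt2, Hdc, Krt18, Gabra2, Agr2 and Nr4a1. Abhd14a, for example, was at 8.19, 8.20 and 8.14 in WT light and at 8.14, 8.21 and 10.49 in KO light, and Cdk2ap1 at 11.53, 11.57 and 11.64 in WT light and at 11.63, 11.57 and 10.40 in KO light. For these 47 genes the array labelled KO light replicate 3 lay on the side of WT dark, and the other arrays outside the comparison on that of KO dark. The side tells only which dark mean was nearer, so arrays of the same side need not be alike. Hdc, for example, was at 8.29, 8.39 and 8.08 in WT light and at 7.31, 7.55 and 8.81 in KO light. Whether genotype, origin of the mice, handling or an exchange of labels set the sides apart was not tested.

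Expression of 6 genes reported to differ between the substrains C57BL/6J and C57BL/6N was measured. A reported difference may be one of sequence that the level of a probe set does not show. Uncalled values therefore do not decide which substrain was used. Entpd4, a nucleotidase of the Golgi, was the called member and one of the 47 genes, with 10.65, 10.77 and 10.60 in KO dark, 11.17, 11.12 and 11.21 in WT dark, 10.68, 10.72 and 10.73 in WT light and 10.67, 10.69 and 11.20 in KO light (difference in the dark -0.49, SE 0.06, adjusted p = 0.0061). Its call was lost without KO dark replicate 1 (adjusted p = 0.0502). Nnt, the transhydrogenase of mitochondria that is truncated in C57BL/6J, had 8.42, 8.25 and 8.30 in KO dark and 8.31, 8.32 and 8.34 in WT dark (difference 0.00, adjusted p = 0.998). Cyfip2 and Wdfy1 differed by -0.04 and 0.06 and were not called. Ide, an insulin-degrading protease, had 9.94, 9.84 and 9.87 in KO dark and 9.89, 9.80 and 10.56 in WT dark (difference -0.20, adjusted p = 0.736), and WT dark replicate 3 thus stood apart, since the 7 other arrays had 9.78 to 9.89. Crb1, a polarity protein of photoreceptors and Müller glia, had 9.99, 10.39 and 10.29 in KO dark and 10.42, 10.40 and 10.40 in WT dark (difference -0.18, adjusted p = 0.525).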

How the data were processed

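The authors deposited a linear intensity per probe set, brought to a common level between arrays with Partek (per the labels; no version, summarization, build or filter is given in the sources used here); medians were 144 to 146 on the 6 arrays. Values were taken to log2. Of 34760 probe sets 21640 carry 1 gene symbol and were averaged per gene; genes of the X and Y chromosomes were left out by the RefSeq table of GRCm38.p6. limma 3.58.1 in R 4.3.3 was fitted to KO dark and WT dark replicates 1 to 3 alone, without covariates, with Benjamini-Hochberg adjustment over 19189 genes, and was tested on simulated data. Replicates are separate mice by the labels, and 3 arrays a group limit the precision. The labels name Trizol for the RNA, the methods a kit.

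Gene lists, motifs and members were chosen with earlier results of these data known. Named were the 15 largest called rises and falls without clones and predicted genes, up to 4 called members per list, a few genes of the study and called genes of chromosome 9. Other called genes, and uncalled ones given by values, were chosen after their values were seen. Alternatives changed the normalization, the filter, the variance model, the arrays, the probe sets and the limits.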

Additional observations from a re-analysis of the deposited data

Results flagged for a closer look

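For 3 of the named genes the difference between KO and WT in light differed from that in the dark, by the interaction term of a limma fit to 12 arrays (KO light minus WT light, less KO dark minus WT dark). Over all 19189 genes 12 had an adjusted p under 0.05 for this term. Most named genes were chosen by their difference in the dark, which the term subtracts. The choice alone thus favors terms of the opposite sign, as all 3 have. For Odc1 the term was 0.80 (adjusted p = 0.0345), as the gene was lower in KO dark by 0.77, while KO light stood at 8.34, 8.28 and 8.49 and WT light at 8.39, 8.20 and 8.43. For Fndc1 the term was -2.03 (adjusted p = 0.0402), with 8.86, 8.72 and 8.94 in KO dark, 8.05, 8.07 and 7.69 in WT dark, 7.37, 8.21 and 8.23 in KO light and 9.30, 8.68 and 9.23 in WT light. For Uaca it was -1.12 (adjusted p = 0.0104), with 8.11, 8.24 and 7.77 in KO light and 8.35, 8.30 and 8.39 in WT light. Without the array labelled KO light replicate 3 the terms were 0.75, -2.18 and -0.98. Dark mice were female and light-exposed mice male, so sex and light cannot be told apart in these terms.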

How the results depend on the processing

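The 145 calls became 157 with quantile normalization, 161 with arrays centred on the median, 201 without dim genes, 160 with array weights, 143 with the brightest probe set, 126 with limits of 1.2 and 0.80 and 148 with no ratio limit. They became 239 with a variance prior that follows intensity, 11 without moderated variances, 19 with 12 arrays in 1 model and 1 with the array labelled WT dark replicate 4 added. At an unadjusted p under 0.05 with the same ratio limits they became 477. Leaving out 1 array gave 70 to 87. Deviations of same-numbered arrays from their group means correlated with r = 0.218, -0.096 and 0.044, and those of other pairs with -0.188 to 0.147. With 3 arrays a group these values cannot decide whether the numbers mark pairs or batches. With the replicate number as a block 134 genes were called, 114 of them among the 145, and Atp5k and Slc7a5 were lost. Where WT dark replicate 4 was added, Cngb1 had 0.11 and the medians of the activity and apoptosis lists were -0.0082 and -0.0181, the reverse of their sign without it. On leaving out 1 array in turn Ppargc1b ranged from -0.0114 to 0.0495. Of the named genes, 15 instead of 3 had an interaction with light without KO light replicate 3, and of all genes 255 instead of 12. No background per probe was used, so dim probe sets were kept.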
